A study of Mus musculus with 12 samples.

Results

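The genes described here are 41 genes of the interferon response and of antigen presentation by major histocompatibility complex (MHC) class I, read by their gene names in the table of counts of sorted bone-forming cells. The table holds 32288 genes and transgenes, and 40 of the 41 are among its rows used here. *Mx2* was not analysed here. Interferons are secreted proteins that warn cells of virus. Type I interferons bind the receptor made of *Ifnar1* and *Ifnar2*, whose kinases *Jak1* and *Tyk2* activate transcription factors such as *Stat2*. With *Irf9*, *Stat2* is part of a complex that binds the interferon-stimulated response element (ISRE) in front of interferon-stimulated genes. Interferon gamma acts through the gamma-activated site (GAS) and through *Irf1*. MHC class I molecules carry peptides from inside the cell to its surface, where T cells inspect them, and *Nlrc5* is the transactivator of their genes.

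Libraries of 4 groups were compared, all made from mGFP+ cells negative for CD31, CD45 and TER119 that were sorted from the metaphysis of the long bones. All mice carried Osx-CreERT2 and mTmG, and all received tamoxifen, so that cells expressing *Osx*, a marker of immature osteoblasts, carried membrane GFP. Juvenile (3 weeks of age, n = 4) and adult (8 weeks of age, n = 4) libraries each pooled the long bones of the hind legs of 2 male mice, collected 2 days after the last of 3 consecutive days of tamoxifen. The *c-Myc* libraries (n = 2) came from mice that also carried LSL-tTA and *Col1a1*::TetO–*c-Myc*, in which the recombined cells express *c-Myc* in the absence of doxycycline. The *c-Myc* + *R172H* libraries (n = 2) came from mice with Trp53-LSL-R172H, a dominant-negative allele of p53, in addition. Mice of both induced groups received tamoxifen at 3 weeks of age on 2 occasions, were collected 7 days later, are called 5 weeks old at dissection, and were of both sexes. The bone was cut about 2 mm from the growth plate in juvenile and adult mice and about 5 mm from it in induced mice. The paper states that inducible mice or pregnant females drank doxycycline or tetracycline until a set time before analysis. It states no such treatment for the juvenile and adult mice. Age at dissection, sex, trimming, the tamoxifen schedule and the LSL-tTA allele therefore differed between the juvenile and the induced libraries along with *c-Myc*. Their parts, and that of these drugs, cannot be told apart. Each induced library was likewise made from pooled osteoblasts, but the number of mice in it is not given in the sources used here, and p-values measure the spread between these libraries.

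Total counts ranged from 9066154 to 15684412 per library. Levels are given as CPM (counts relative to the size of the library) scaled by TMM factors over all 12 libraries, and on this scale 3 counts, taken as the limit of detection, were worth 0.137 to 0.417 CPM. Myc was at 45.9 ± 5.22 CPM in juvenile (SD, n = 4), 641 ± 23.8 in *c-Myc* (SD, n = 2) and 693 ± 76.7 in *c-Myc* + *R172H* libraries (SD, n = 2). *Xist*, which is transcribed from the inactive X chromosome of females, was at 234 and 212 CPM in replicate 2 of the *c-Myc* and of the *c-Myc* + *R172H* group and at most 1.24 CPM elsewhere. *Col1a1*, *Col1a2* and *Gm26917* took 57.1 to 65.3% of the counts of juvenile, 42.4 to 56.1% of adult, 41.8 to 46.1% of *c-Myc* and 35.2 to 37.6% of *c-Myc* + *R172H* libraries. Scaling by library totals in place of TMM moved the median log2 fold change of all genes tested from 0.037 to 0.87 in *c-Myc* against juvenile, from 0.076 to 1.11 in *c-Myc* + *R172H* against juvenile, and from 0.00 to -0.24 in juvenile against adult. With library totals, 6803 genes were called higher and 1116 lower in *c-Myc* than in juvenile libraries, against 3577 and 3149 with TMM. For *c-Myc* + *R172H* against juvenile these counts were 7667 and 1169 against 3832 and 3311, and for juvenile against adult 53 and 792 against 214 and 367. Changes are therefore given relative to the bulk of the genes.

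The members differed widely in level. After division by the exon length of each gene, *B2m*, the light chain of MHC class I, stood first in juvenile libraries with a mean of 175 CPM per kb, followed by the heavy chain gene *H2-D1* at 93.0, the membrane protein genes *Ifitm3* at 71.2 and *Ifitm2* at 57.8, and *H2-K1* at 55.8 CPM per kb. In *c-Myc* + *R172H* libraries *Ifitm2* (51.7 CPM per kb) and *B2m* (51.2) headed the same scale. Most interferon-stimulated genes were scarce. Of the 40 members, 21 stayed under 10 CPM in every library, and 29 had more than 3 counts in all 12 libraries. The filter on low counts passed 31 members in the comparison of ages and 37 in the comparisons with *c-Myc*, and 3 members (*Usp18*, *Oas1a* and *Ifi44*) passed in neither. The map of all members by library shows the MHC class I genes as a block that is high in adult and low in induced libraries, whereas the other roles show no such block across all groups.

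**Figure D1:**
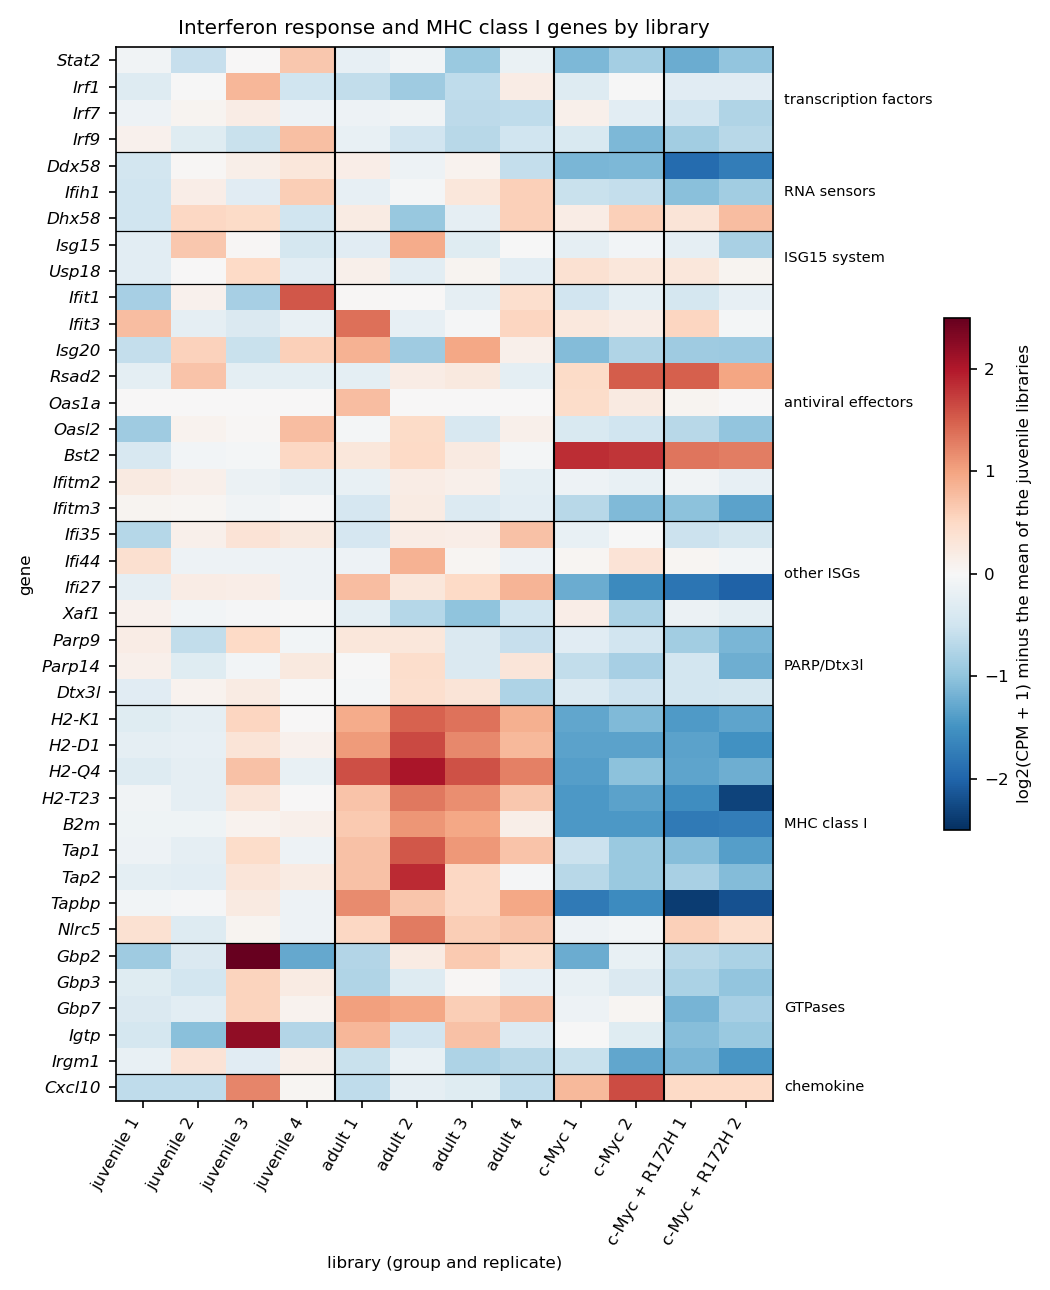
Level of each member (vertical axis, grouped by role) in each of the 12 libraries (horizontal axis), as log2(CPM + 1) minus the mean of the 4 juvenile libraries. Red is higher and blue is lower than the juvenile mean. The MHC class I genes are red in adult libraries, apart from *Tap2* in adult replicate 4, and, apart from *Nlrc5*, blue in the induced libraries, and *Gbp2* and *Igtp* are high in juvenile replicate 3.

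The promoters of the members were searched for the letters of the response elements, since these are the sites through which interferon is known to act. The search covered the RefSeq promoter windows of GRCm38.p6, which run from 250 bases before to 50 bases after each start, and 33 of the members had at least 1 window among 39 in all. The ISRE core was taken as GAAANNGAA on either strand, and 20 of the 39 windows (51.3%), in 20 genes, held it, against 8.56% of the 32851 windows of all genes. The GAS letters TTCNNNGAA, which read the same on both strands and can overlap an ISRE core, were in 8 of the 39 windows (20.5%) and in 8.3% of all windows. CACGTG, the E-box bound by *c-Myc*, was in 0 of the 39 windows and in 7.15% of all windows. All 5 GTPase genes held an ISRE core, as did 7 of the 9 antiviral effector genes, both RNA sensor genes with a window, *Isg15*, *Cxcl10*, *Ifi44* and *Stat2*. Of the 7 MHC class I genes with a window, *H2-T23* and *B2m* held it and *H2-K1*, *H2-D1*, *H2-Q4*, *Tap1* and *Tapbp* did not. A match of letters is not a site shown to be bound, and a window without a match says only that these letters are not in it. Other forms of the element were not searched, so the class I windows without a match can still hold one.

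The windows of the 6 members with an ISRE core and the smallest adjusted p in *c-Myc* against juvenile libraries are printed here 5′ to 3′ on the strand of the gene, because they show the element beside a start for genes that moved in opposite directions, with *Bst2* up and the others down. The capitals mark the ISRE cores, which read GAAANNGAA on the gene's strand and TTCNNTTTC where the core lies on the other strand. The windows lie at chr2:122147437-122147736 (plus strand) for *B2m*, chr8:71537423-71537722 (minus strand) for *Bst2*, chr7:141010695-141010994 (minus strand) for *Ifitm3*, chr17:36032652-36032951 (minus strand) for *H2-T23*, chr4:40239776-40240075 (minus strand) for *Ddx58* and chr10:128270248-128270547 (plus strand) for *Stat2*.
B2m: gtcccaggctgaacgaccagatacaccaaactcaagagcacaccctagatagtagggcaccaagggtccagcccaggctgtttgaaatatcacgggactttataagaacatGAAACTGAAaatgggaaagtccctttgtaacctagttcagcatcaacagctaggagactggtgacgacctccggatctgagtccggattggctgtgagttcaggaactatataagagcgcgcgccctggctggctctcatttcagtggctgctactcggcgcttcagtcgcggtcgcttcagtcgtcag
Bst2: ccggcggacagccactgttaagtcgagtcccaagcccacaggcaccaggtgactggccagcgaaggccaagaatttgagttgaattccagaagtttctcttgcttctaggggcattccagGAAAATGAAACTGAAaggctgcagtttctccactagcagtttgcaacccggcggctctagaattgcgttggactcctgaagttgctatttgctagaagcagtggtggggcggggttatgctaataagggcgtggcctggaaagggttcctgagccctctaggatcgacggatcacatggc
Ifitm3: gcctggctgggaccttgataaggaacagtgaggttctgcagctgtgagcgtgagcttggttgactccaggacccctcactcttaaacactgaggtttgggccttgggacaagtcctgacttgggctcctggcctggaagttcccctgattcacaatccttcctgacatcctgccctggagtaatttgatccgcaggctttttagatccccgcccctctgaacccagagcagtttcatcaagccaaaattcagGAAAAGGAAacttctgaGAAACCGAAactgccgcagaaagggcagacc
H2-T23: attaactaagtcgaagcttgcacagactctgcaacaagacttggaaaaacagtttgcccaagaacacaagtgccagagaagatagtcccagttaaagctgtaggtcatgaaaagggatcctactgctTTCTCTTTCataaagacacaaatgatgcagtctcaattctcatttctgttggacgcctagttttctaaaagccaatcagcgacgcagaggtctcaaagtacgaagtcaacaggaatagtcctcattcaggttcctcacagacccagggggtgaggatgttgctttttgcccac
Ddx58: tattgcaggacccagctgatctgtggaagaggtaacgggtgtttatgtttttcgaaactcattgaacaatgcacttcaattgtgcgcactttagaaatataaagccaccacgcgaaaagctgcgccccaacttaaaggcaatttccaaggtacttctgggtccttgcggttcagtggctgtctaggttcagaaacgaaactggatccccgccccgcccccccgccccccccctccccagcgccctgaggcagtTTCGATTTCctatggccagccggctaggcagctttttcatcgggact
Stat2: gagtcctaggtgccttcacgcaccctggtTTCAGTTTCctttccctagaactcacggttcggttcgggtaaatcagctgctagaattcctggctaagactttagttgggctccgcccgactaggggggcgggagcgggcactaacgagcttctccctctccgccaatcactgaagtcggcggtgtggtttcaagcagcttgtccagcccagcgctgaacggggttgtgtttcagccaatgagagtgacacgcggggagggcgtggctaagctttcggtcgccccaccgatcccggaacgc

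Counted from the start to the middle base of the match, the core lay at -135 in *B2m*, at -119 in *H2-T23* and at -217 in *Stat2*. In *Bst2*, which encodes the virus-tethering membrane protein tetherin, 2 overlapping cores lay at -126 and -120, next to GAS letters at -132. In *Ifitm3* the 2 cores lay downstream of the start, at 6 and 23, with GAS letters at 17 between them, and in *Ddx58* the core lay at 7. *Isg15*, *Ifit1* and *Ifit3* each held 3 cores, between -151 and -62.

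**Figure D2:**
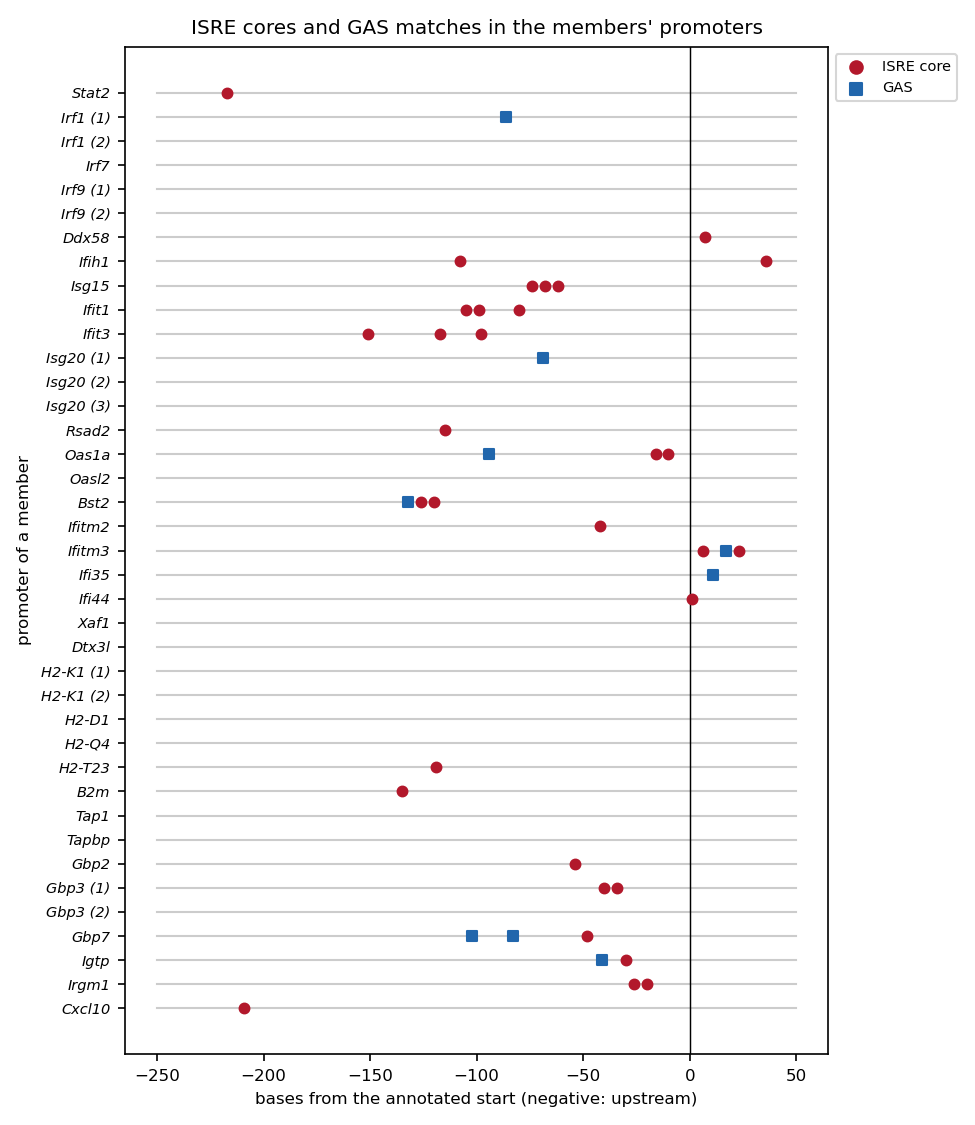
Position of each ISRE core (red circles) and GAS match (blue squares) in the 39 promoter windows of the members (vertical axis), in bases from the annotated start (horizontal axis, negative is upstream). Grey lines are the windows searched. Matches are seen in all GTPase genes and most antiviral effector genes and in 2 of the MHC class I genes.

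The 4 heavy chain genes of MHC class I were measured first. *H2-D1* (chr17:35262730-35267499), which encodes a classical heavy chain that presents peptide, gave 204, 204, 296 and 255 CPM in juvenile, 496, 743, 547 and 414 in adult, 93.2 and 92.8 in *c-Myc* and 92.6 and 82.4 in *c-Myc* + *R172H* libraries. Adult libraries were all above juvenile libraries, and juvenile libraries were all above induced libraries. *H2-K1* (chr17:33996017-34000347), the other classical heavy chain, gave 128, 136, 232 and 159.6 CPM in juvenile, 304, 443, 410.1 and 296 in adult, 64.5 and 74.0 in *c-Myc* and 58.9 and 63.1 in *c-Myc* + *R172H* libraries. It took the same order without overlap between adult, juvenile and induced libraries. *H2-Q4* (chr17:35379617-35385290), a nonclassical heavy chain, gave 9.13, 9.91, 20.0 and 10.2 CPM in juvenile, 37.8, 51.2, 37.1 and 29.2 in adult, 3.88 and 5.27 in *c-Myc* and 4.12 and 4.47 in *c-Myc* + *R172H* libraries. Juvenile replicate 3 was about as far above the other juvenile libraries as those were from 0, yet it stayed below every adult library. *H2-T23* (chr17:36029773-36032855), whose product Qa-1 is read by natural killer cells, gave 10.7, 9.70, 14.3 and 11.4 CPM in juvenile, 19.2, 30.1, 26.8 and 18.9 in adult, 3.56 and 3.91 in *c-Myc* and 3.25 and 1.49 in *c-Myc* + *R172H* libraries. Its groups also did not overlap, though the reported test called no member between the induced groups.

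The genes for the light chain and for the loading of peptide followed. *B2m* (chr2:122147686-122153083) gave 139.9, 139, 159.5 and 165 CPM in juvenile, 237, 326, 293 and 167 in adult, 55.0 and 55.3 in *c-Myc* and 43.2 and 44.8 in *c-Myc* + *R172H* libraries. Its lowest adult library, replicate 4, lay just above the highest juvenile library, whereas the induced libraries were far below both. *Tapbp* (chr17:33915899-33929292) encodes tapasin, which holds empty class I molecules at the peptide transporter, and gave 50.4, 51.5, 62.0 and 48.6 CPM in juvenile, 122, 85.8, 76.3 and 105 in adult, 14.8 and 17.1 in *c-Myc* and 9.34 and 10.9 in *c-Myc* + *R172H* libraries. All 4 groups were separate, with *c-Myc* + *R172H* libraries lowest. A gap between the induced groups rests on 2 libraries each, and the reported test called no member there. *Tap1* (chr17:34187553-34197225), a subunit of the transporter that carries peptides into the endoplasmic reticulum, gave 7.49, 6.91, 11.7 and 7.45 CPM in juvenile, 14.4, 25.9, 18.6 and 14.2 in adult, 5.39 and 3.86 in *c-Myc* and 3.39 and 2.53 in *c-Myc* + *R172H* libraries. Here too the groups were separate, and juvenile replicate 3 was the highest of its group. *Tap2* (chr17:34203527-34216321), the other subunit, gave 6.76, 6.71, 10.4 and 9.57 CPM in juvenile, 14.4, 32.6, 12.2 and 8.00 in adult, 4.70 and 3.86 in *c-Myc* and 4.26 and 3.38 in *c-Myc* + *R172H* libraries. Adult replicate 2 stood out, and adult replicate 4 lay within the range of the juvenile libraries. *Nlrc5* (chr8:94434356-94527272) gave 13.3, 7.84, 10.6 and 9.19 CPM in juvenile, 14.8, 26.1, 16.04 and 16.8 in adult, 9.13 and 9.53 in *c-Myc* and 15.7 and 14.0 in *c-Myc* + *R172H* libraries. Unlike the genes it is known to drive, *Nlrc5* was within the juvenile range in the *c-Myc* libraries and above every juvenile and *c-Myc* library in the *c-Myc* + *R172H* libraries. *H2-K1*, *H2-D1*, *H2-Q4*, *H2-T23*, *Tap1*, *Tap2* and *Tapbp* lie on chromosome 17, between 33915899 and 36032855, while *B2m* is on chromosome 2 and *Nlrc5* on chromosome 8. *Tap1* overlaps *Psmb9* on the other strand, and *Tapbp* overlaps *Gm19412* on the other strand and *Zbtb22* on its own. Reads of genes on opposite strands could be shared where strand was not used in counting, and use of strand would not separate *Tapbp* from *Zbtb22*. Near-identical H2 genes lose reads that match several of them.

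**Figure D3:**
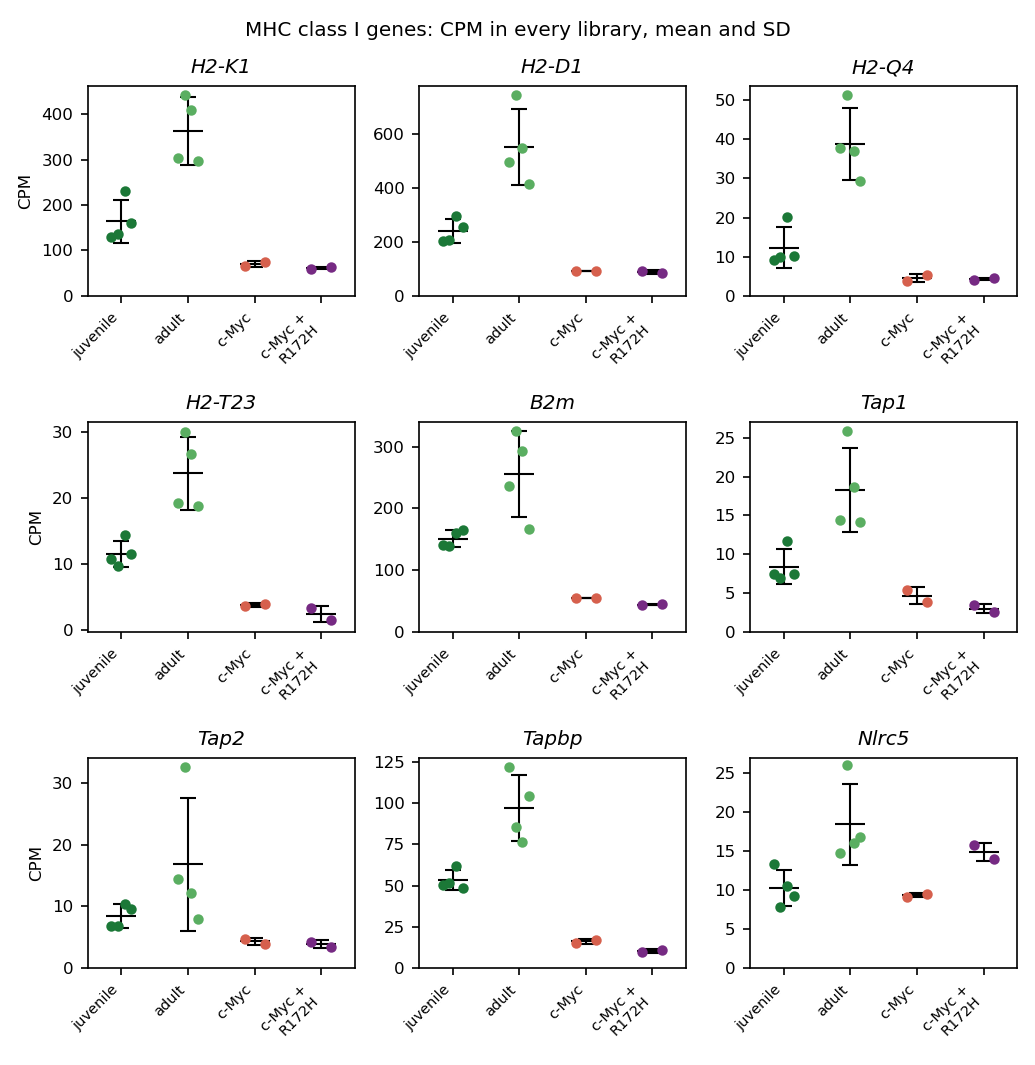
CPM of the 9 MHC class I genes (vertical axes, from 0) in the 4 groups (horizontal axes). Points are libraries, horizontal marks are means and bars are SD (n = 4, 4, 2 and 2). Adult libraries are above juvenile libraries and the induced libraries lie lowest in all panels but that of *Nlrc5*, with some adult and juvenile values of *Tap2* overlapping.

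Which genes differ between growing and nearly grown bone is the question of the comparison of juvenile with adult cells. Juvenile cells held less RNA of the MHC class I genes than adult cells, and no other member was called. With edgeR's quasi-likelihood test and Benjamini-Hochberg adjustment over 11345 genes, 8 of the 31 members tested were called lower, all of them among the 9 MHC class I genes, whereas 3.23% of all genes tested were called lower. *H2-Q4* differed most, at 3.20-fold higher in adult cells (log2 fold change -1.68 ± 0.25 SE, adjusted p = 0.00140). *H2-D1* was 2.30-fold higher in adult cells (log2 fold change -1.20 ± 0.17 SE, adjusted p = 0.00114) and *H2-K1* 2.23-fold (log2 fold change -1.16 ± 0.19 SE, adjusted p = 0.00320). *Tapbp* followed with -0.88 ± 0.15 (adjusted p = 0.00284), *H2-T23* with -1.05 ± 0.21 (adjusted p = 0.00914), *B2m* with -0.77 ± 0.17 (adjusted p = 0.0146) and *Tap1* with -1.14 ± 0.25 (adjusted p = 0.0162) on the log2 scale. *Nlrc5* lay at the threshold, with -0.85 ± 0.24 (adjusted p = 0.0479), and *Tap2* missed it, with -1.02 ± 0.36 (adjusted p = 0.122). *Tap2* was called lower with library totals (-1.24, adjusted p = 0.0231) and without the filter on low counts (adjusted p = 0.0197), and its value was -0.47 without adult replicate 2. Over the 9 genes the median log2 fold change was -1.05, against -0.14 for the 31 members and 0.00 for all genes tested. In bulk libraries fewer cells of a type and less RNA per cell cannot be told apart.

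In the other direction no member was called higher in juvenile cells by edgeR, where 1.89% of all genes were called higher at an adjusted p below 0.05. DESeq2 called no member higher either, beside 319 of all 16862 genes. No member was higher at an unadjusted p under 0.05, and the share of all genes at that threshold is not given here. The call of *Nlrc5* was lost without each library in turn but juvenile replicate 1, with values from -0.63 without adult replicate 2 to -0.95 without adult replicate 1. *B2m* and *Tap1* lost theirs without juvenile replicate 1 (-0.73 and -1.08) and without juvenile replicate 2 (-0.73 and -1.05).

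Induction of *c-Myc* was studied to learn what sets off the growth of these cells. The genes for class I chains and for peptide loading were lower in *c-Myc* than in juvenile cells. Of the 37 members tested, 14 were called lower and 1 higher, while 25.0% and 28.4% of the 12588 genes tested were called lower and higher. All 8 genes for class I chains and peptide loading were called lower, and their median log2 fold change was -1.41, against -0.87 for the 37 members and 0.037 for all genes. *B2m* was 2.77-fold lower (log2 fold change -1.47 ± 0.11 SE, adjusted p = 2.77e-07), *Tapbp* 3.38-fold lower (log2 fold change -1.76 ± 0.16 SE, adjusted p = 1.49e-06) and *H2-D1* 2.62-fold lower (log2 fold change -1.39 ± 0.15 SE, adjusted p = 5.95e-06). *H2-K1* gave -1.26 ± 0.20 (adjusted p = 0.000179), *H2-T23* -1.64 ± 0.34 (adjusted p = 0.00126), *H2-Q4* -1.44 ± 0.35 (adjusted p = 0.00405), *Tap2* -0.98 ± 0.31 (adjusted p = 0.0180) and *Tap1* -0.87 ± 0.33 (adjusted p = 0.0393) on the log2 scale. *Nlrc5* was not called, with -0.16 ± 0.24 (adjusted p = 0.594), and its sign turned with library totals (0.66, adjusted p = 0.0481) and without juvenile replicate 1 (0.0062).

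The juvenile libraries are shared by this comparison and that of ages, so the low values of class I genes in *c-Myc* cells and the high values in adult cells are 2 readings against one set of controls. With library totals in place of TMM the 8 genes had negative values, with a median of -0.57 beside a median of 0.87 for all genes, and 3 of them (*H2-D1*, *B2m* and *Tapbp*) were called. Without *c-Myc* replicate 2, the library with *Xist*, 6 of the 8 were called lower, and without *c-Myc* replicate 1 the number was 5. *Tap1* and *Tap2* were the ones lost without replicate 2 (-0.65 and -0.85) and, with *H2-Q4* (-1.23), without replicate 1 (-1.13 and -1.13). *Tap1* was also lost without juvenile replicate 3 (-0.68).

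With *R172H* added to *c-Myc*, the same 8 genes were called lower than in juvenile cells. Their median log2 fold change was -1.49. *Tapbp* was 5.22-fold lower (log2 fold change -2.38 ± 0.16 SE, adjusted p = 1.29e-07), *H2-T23* 4.81-fold lower (log2 fold change -2.27 ± 0.35 SE, adjusted p = 0.000137) and *B2m* 3.40-fold lower (log2 fold change -1.77 ± 0.11 SE, adjusted p = 5.34e-08). *H2-D1* gave -1.45 ± 0.15 (adjusted p = 3.66e-06), *H2-K1* -1.41 ± 0.20 (adjusted p = 6.70e-05), *H2-Q4* -1.50 ± 0.35 (adjusted p = 0.00293), *Tap1* -1.48 ± 0.34 (adjusted p = 0.00243) and *Tap2* -1.11 ± 0.31 (adjusted p = 0.00870), of which *Tap2* lost its call without *c-Myc* + *R172H* replicate 2 (-0.99). Over all members, 19 of the 37 tested were called lower and 2 higher, beside 26.3% and 30.4% of all genes. With library totals 4 of the 8 class I genes were called lower, with a median of -0.43. *Nlrc5* was not called, with 0.54 ± 0.23 (adjusted p = 0.0603), and was called higher without juvenile replicate 1 (0.71, adjusted p = 0.0146), with library totals (1.58, adjusted p = 0.000140), without the filter on low counts (adjusted p = 0.0477) and with a minimum of 10 counts in every library (adjusted p = 0.0481).

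Set directly against *c-Myc* cells, *c-Myc* + *R172H* cells had no member called in either direction by edgeR, where 0.461% of all genes were called lower and 0.00794% higher. Of the 37 members tested, 28 had negative and 9 positive log2 fold changes, with a median of -0.28 beside -0.0028 for all genes. The paper lists the hallmark gene set of the interferon gamma response as enriched in *c-Myc* over *c-Myc* + *R172H* cells. No test of a set was run here. At an unadjusted p under 0.05 there were 4 members lower (*Tapbp*, *B2m*, *Ddx58* and *Gbp7*) and 1 higher (*Nlrc5*), and the share of all genes at that threshold is not given here. DESeq2 called 1 member lower (*Tapbp*) and 0 higher, and of all 19021 genes it called 195 lower and 6 higher. *Tapbp* had the smallest adjusted p, with -0.63 ± 0.17 (adjusted p = 0.246), and the libraries of both groups did not overlap. *Nlrc5* was at 9.33 ± 0.278 CPM in *c-Myc* and 14.9 ± 1.20 in *c-Myc* + *R172H* libraries (SD, n = 2 each), with a log2 fold change of 0.70 ± 0.26 (adjusted p = 0.704). With 2 libraries a group, a difference of this size was not called here. A fit of these 4 libraries alone called 5 members lower and 1 higher, and it called 440 of all 12170 genes tested lower and 189 higher.

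Markers of other cells moved between the groups, and their part in the class I results was not tested. The 9 osteoblast markers summed to 571515 to 840239 CPM in juvenile, 343256 to 618753 in adult, 99905 to 132323 in *c-Myc* and 56424 to 58368 in *c-Myc* + *R172H* libraries. The 7 chondrocyte markers summed to 8346 to 24679.9, 32689.7 to 118713, 333 to 525 and 154 to 158 CPM in the same order. Of these 7, 1 was called lower in juvenile than in adult cells, and all 7 were called lower in each induced group than in juvenile cells. The 5 marrow stromal markers summed to 269 to 360.0, 335 to 586, 79.5 to 154 and 63.2 to 82.7 CPM, with means of 315, 435, 117 and 73.0. For both lists the mean was highest in adult and lowest in *c-Myc* + *R172H* libraries. The 13 macrophage markers summed to 1.64 to 6.95, 13.1 to 25.6, 13.6 to 17.5 and 9.48 to 11.4 CPM, with 7 of them, *Ptprc* and *Adgre1* included, at 0 in all juvenile libraries. Their sum was higher in every adult and every induced library than in every juvenile library. The 10 lymphoid markers were all at 0 in adult libraries and summed to at most 1.25 CPM in any library. The 7 endothelial markers summed to at most 1.64, the 9 neutrophil markers to at most 1.60 and the 8 erythroid markers to at most 1.02 CPM. Of the 5 dendritic cell markers, 1 passed the limit of detection in any group and the list summed to 5.56 to 12.4 CPM in juvenile, 3.94 to 11.3 in adult, 2.88 to 3.57 in *c-Myc* and 2.11 to 3.28 in *c-Myc* + *R172H* libraries. The 6 osteoclast markers summed to 129 to 151, 93.0 to 115, 18.04 to 23.5 and 19.5 to 21.2 CPM, from 2 or 3 genes a group, while *Dcstamp*, *Ocstamp* and *Calcr* were at 0 in all.

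Of the 4 genes for transcription factors of the pathway, *Stat2* was called lower than in juvenile cells in both induced groups and *Irf9* in *c-Myc* + *R172H* cells. *Stat2* gave 10.6, 7.33, 11.4 and 18.8 CPM in juvenile, 9.82, 10.8, 5.56 and 10.1 in adult, 4.70 and 5.90 in *c-Myc* and 4.26 and 5.26 in *c-Myc* + *R172H* libraries. The induced libraries were below every juvenile library, and juvenile replicate 4 was the highest. *Stat2* was called lower in *c-Myc* (-1.20 ± 0.35, adjusted p = 0.0115) and in *c-Myc* + *R172H* (-1.32 ± 0.35, adjusted p = 0.00640) than in juvenile cells, a call lost without replicate 1 of the induced group (-1.04 and -1.20) and with library totals (-0.35 and -0.26). *Irf9*, its partner on DNA, gave 12.8, 9.39, 7.79 and 20.6 CPM in juvenile, 10.3, 8.24, 6.99 and 8.10 in adult, 8.86 and 4.88 in *c-Myc* and 6.04 and 6.90 in *c-Myc* + *R172H* libraries. A *c-Myc* library lay inside the juvenile range, and the call was made for *c-Myc* + *R172H* alone (-0.96 ± 0.38, adjusted p = 0.0460), against an adjusted p of 0.0615 for *c-Myc*. The *Irf9* call was lost without either *c-Myc* + *R172H* library or without juvenile replicate 1 or 4, with values from -0.64 to -1.13 over all libraries left out in turn, and its sign turned with library totals (0.094). *Irf1* (chr11:53770014-53778374), which interferon gamma induces and which acts on class I genes, gave 22.2, 28.0, 51.0 and 19.6 CPM in juvenile, 17.9, 14.7, 17.7 and 32.1 in adult, 22.4 and 28.0 in *c-Myc* and 22.9 and 23.1 in *c-Myc* + *R172H* libraries. Its groups overlapped, juvenile replicate 3 was far above the rest, and it was called in no comparison (adjusted p = 0.407 for the ages, 0.470 for *c-Myc* and 0.309 for *c-Myc* + *R172H* against juvenile). *Irf7*, which amplifies type I interferon, was between 1.49 and 3.76 CPM in all libraries and was not called either.

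Among the sensors of viral RNA, *Ddx58*, which encodes RIG-I, gave 6.30, 9.18, 10.2 and 11.2 CPM in juvenile, 10.2, 8.24, 9.70 and 5.65 in adult, 3.52 and 3.63 in *c-Myc* and 1.65 and 2.04 in *c-Myc* + *R172H* libraries. The 8 control libraries were all above the *c-Myc* libraries, which were above the *c-Myc* + *R172H* libraries. *Ddx58* was 2.60-fold lower in *c-Myc* (log2 fold change -1.38 ± 0.32 SE, adjusted p = 0.00321) and 4.93-fold lower in *c-Myc* + *R172H* (log2 fold change -2.30 ± 0.35 SE, adjusted p = 0.000107) than in juvenile cells, and the step between the induced groups was not called (adjusted p = 0.820). With library totals the *c-Myc* call was lost (-0.53, adjusted p = 0.170). *Ifih1*, which encodes the sensor MDA5, gave 3.38, 5.88, 4.03 and 8.45 CPM in juvenile, 4.35, 4.97, 6.47 and 8.32 in adult, 3.20 and 3.06 in *c-Myc* and 1.97 and 2.38 in *c-Myc* + *R172H* libraries. It was called lower in *c-Myc* + *R172H* (-1.31 ± 0.43, adjusted p = 0.0213) and not in *c-Myc* (adjusted p = 0.122), though no induced library reached the lowest juvenile one, and the call was lost without either *c-Myc* + *R172H* library (-1.20 and -1.49). *Dhx58*, which encodes their relative LGP2, was at 0 to 2.28 CPM and was called nowhere.

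Antiviral effectors moved in both directions. *Bst2* (chr8:71534255-71537456) gave 4.38, 5.78, 5.84 and 9.19 CPM in juvenile, 7.70, 9.03, 7.25 and 5.86 in adult, 24.4 and 23.6 in *c-Myc* and 17.0 and 16.2 in *c-Myc* + *R172H* libraries. Every induced library was above every control library, and the *c-Myc* libraries were above the *c-Myc* + *R172H* libraries. *Bst2* was 3.79-fold higher in *c-Myc* (log2 fold change 1.92 ± 0.24 SE, adjusted p = 2.28e-05) and 2.67-fold higher in *c-Myc* + *R172H* (log2 fold change 1.42 ± 0.24 SE, adjusted p = 0.000272) than in juvenile cells, and it did not pass the test between the induced groups (adjusted p = 1) or between the ages (0.721). It was the one member called higher in *c-Myc* cells, and this call held in each of the 16 alternatives run. *Ifitm3* (chr7:141009586-141010770), which blocks the entry of viruses, gave 50.4, 49.9, 45.3 and 47.5 CPM in juvenile, 35.8, 55.5, 37.6 and 39.9 in adult, 29.3 and 22.1 in *c-Myc* and 23.1 and 18.4 in *c-Myc* + *R172H* libraries. Its induced libraries were all below its control libraries. It was 1.91-fold lower in *c-Myc* (log2 fold change -0.93 ± 0.15 SE, adjusted p = 0.000223) and 2.32-fold lower in *c-Myc* + *R172H* than in juvenile cells (log2 fold change -1.21 ± 0.15 SE, adjusted p = 2.65e-05). With library totals the values came to -0.095 and -0.17 and neither was called. The neighbouring *Ifitm2* gave 44.3, 40.97, 34.1 and 32.2 CPM in juvenile, 32.8, 42.9, 41.1 and 31.7 in adult, 34.4 and 32.8 in *c-Myc* and 35.5 and 32.3 in *c-Myc* + *R172H* libraries. These ranges overlapped throughout, and *Ifitm2* was called in no comparison (adjusted p = 0.283 for *c-Myc* and 0.388 for *c-Myc* + *R172H* against juvenile).

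*Rsad2*, which encodes the antiviral enzyme viperin, gave 0, 0.929, 0 and 0 CPM in juvenile, 0, 0.339, 0.388 and 0 in adult, 0.639 and 2.38 in *c-Myc* and 2.33 and 1.34 in *c-Myc* + *R172H* libraries. Juvenile replicates 1, 3 and 4 were at 0 counts and replicate 2 was at 9, against 14 and 42 counts in *c-Myc* and 51 and 27 in *c-Myc* + *R172H* libraries. *Rsad2* was called higher in *c-Myc* + *R172H* than in juvenile cells (2.87 ± 1.14, adjusted p = 0.0471) and not in *c-Myc* cells (adjusted p = 0.0798). The call was lost in 11 of 15 alternatives, with 2.93 by DESeq2 and values from 2.40 without juvenile replicate 1 to 3.20 without *c-Myc* + *R172H* replicate 2 among the 5 libraries whose removal ended it. Without juvenile replicate 2 no read of *Rsad2* is left in the juvenile group, so no fold is given there. *Isg20*, an exonuclease, gave 2.01, 5.78, 2.09 and 5.84 CPM in juvenile, 7.29, 1.47, 7.89 and 3.94 in adult, 1.14 and 1.70 in *c-Myc* and 1.46 and 1.44 in *c-Myc* + *R172H* libraries. It was called lower in *c-Myc* (-1.49 ± 0.59, adjusted p = 0.0486) and missed the threshold in *c-Myc* + *R172H* (adjusted p = 0.0535). The *c-Myc* call was lost without either *c-Myc* library and without juvenile replicate 2 or 4, with values from -1.22 to -1.80 over all libraries left out. *Oasl2*, of the oligoadenylate synthetase family, was between 0.794 and 5.09 CPM and was not called.

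The genes that commonly mark an interferon response were close to the limit of detection. *Isg15*, a ubiquitin-like protein, was at 0.248 to 3.16 CPM, *Usp18*, which removes it from its targets, at 0 to 0.695, and *Ifit1* and *Ifit3*, which bind viral RNA or its partners, at 0 to 4.22 and 0 to 2.33 CPM. *Oas1a* was at 0 to 0.709 CPM and was at 0 counts in all 4 juvenile libraries. *Isg15*, *Ifit1* and *Ifit3* were tested against *c-Myc* and were not called in any of those comparisons, and *Usp18* and *Oas1a* were not tested. *Ifit1* reached its highest value in juvenile replicate 4, *Ifit3* in adult replicate 1 and *Isg15* in adult replicate 2, so no group held the high libraries of these genes.

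Of the other interferon-stimulated genes, *Ifi27* (chr12:103434211-103440239), whose product lies in mitochondria and the nuclear envelope, gave 12.9, 17.4, 17.1 and 13.9 CPM in juvenile, 26.5, 18.6, 21.9 and 28.4 in adult, 5.85 and 4.37 in *c-Myc* and 3.57 and 2.98 in *c-Myc* + *R172H* libraries. Adult libraries were all above juvenile libraries and those were all above induced libraries, as for the class I heavy chains. *Ifi27* was 3.03-fold lower in *c-Myc* (log2 fold change -1.60 ± 0.25 SE, adjusted p = 0.000178) and 4.64-fold lower in *c-Myc* + *R172H* than in juvenile cells (log2 fold change -2.21 ± 0.26 SE, adjusted p = 1.55e-05), and both calls held in each of the 16 alternatives run. The difference between the ages missed the threshold (adjusted p = 0.0610). *Ifi35* was at 2.37 to 8.21 CPM and *Xaf1*, linked to cell death, at 0 to 1.28 CPM, and neither was called. *Ifi44* stayed from 0 to 1.02 CPM and was not tested.

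The guanylate-binding proteins and immunity-related GTPases, which attack the vacuoles of parasites and bacteria, were few in counts. *Gbp2* gave 0.639, 1.34, 16.3 and 0.248 CPM in juvenile, 0.810, 2.48, 3.75 and 3.09 in adult, 0.274 and 1.64 in *c-Myc* and 0.870 and 0.745 in *c-Myc* + *R172H* libraries. Juvenile replicate 3 held most of the reads of its group, and *Gbp2* was called in no comparison (adjusted p = 0.766 for the ages, 0.191 for *c-Myc* and 0.155 for *c-Myc* + *R172H* against juvenile). *Igtp* gave 0.822, 0.206, 10.6 and 0.497 CPM in juvenile, 3.44, 0.790, 3.11 and 0.960 in adult, 1.46 and 1.02 in *c-Myc* and 0.183 and 0.298 in *c-Myc* + *R172H* libraries. The same juvenile library stood apart, and *Igtp* was called lower in *c-Myc* + *R172H* than in juvenile cells (-3.56 ± 1.43, adjusted p = 0.04999). Without juvenile replicate 3 the value was -1.08 and the call was lost, as it was without either *c-Myc* + *R172H* library. *Irgm1* gave 4.38, 6.71, 4.03 and 5.71 CPM in juvenile, 3.14, 4.40, 2.59 and 2.77 in adult, 3.15 and 1.47 in *c-Myc* and 1.79 and 1.24 in *c-Myc* + *R172H* libraries. It was called lower in *c-Myc* (-1.19 ± 0.44, adjusted p = 0.0389) and in *c-Myc* + *R172H* cells (-1.77 ± 0.46, adjusted p = 0.00566). The *c-Myc* call was lost without *c-Myc* replicate 2 (-0.75) and juvenile replicate 2 (-1.04), and the other without *c-Myc* + *R172H* replicate 2 (-1.57). *Gbp3*, at 0.199 to 2.50 CPM, and *Gbp7*, at 0.320 to 4.96 CPM, were called lower in *c-Myc* + *R172H* than in juvenile cells (-2.31 ± 0.86, adjusted p = 0.0361, and -2.04 ± 0.69, adjusted p = 0.0234), and both calls were lost without either *c-Myc* + *R172H* library (-2.83 and -1.99 for *Gbp3*, -1.65 and -2.65 for *Gbp7*). *Gbp3* was lost without juvenile replicate 3 too (-1.94).

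*Parp9*, which acts with the ubiquitin ligase *Dtx3l* in the repair of DNA and in interferon signalling, gave 6.12, 3.10, 7.79 and 4.97 CPM in juvenile, 6.58, 6.66, 3.88 and 3.20 in adult, 4.16 and 3.46 in *c-Myc* and 2.43 and 1.84 in *c-Myc* + *R172H* libraries. It was called lower in *c-Myc* + *R172H* than in juvenile cells (-1.35 ± 0.42, adjusted p = 0.0155), a call lost without either *c-Myc* + *R172H* library (-1.58 and -1.20). The exons of *Parp9* and *Dtx3l* overlap on opposite strands and the strand setting of the counting is not given, so their reads could be shared. *Parp14*, a relative of *Parp9*, was at 1.39 to 6.55 CPM and *Dtx3l* at 2.56 to 7.11 CPM, and neither was called in any comparison. *Cxcl10*, the chemokine that draws T cells, gave 0, 0, 2.64 and 0.621 CPM in juvenile, 0, 0.339, 0.259 and 0 in adult, 1.74 and 3.80 in *c-Myc* and 1.19 and 1.19 in *c-Myc* + *R172H* libraries. All 4 induced libraries were above 3 of the 4 juvenile libraries and all adult libraries, and the differences from juvenile cells were not called (adjusted p = 0.172 and 0.642).

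**Figure D4:**
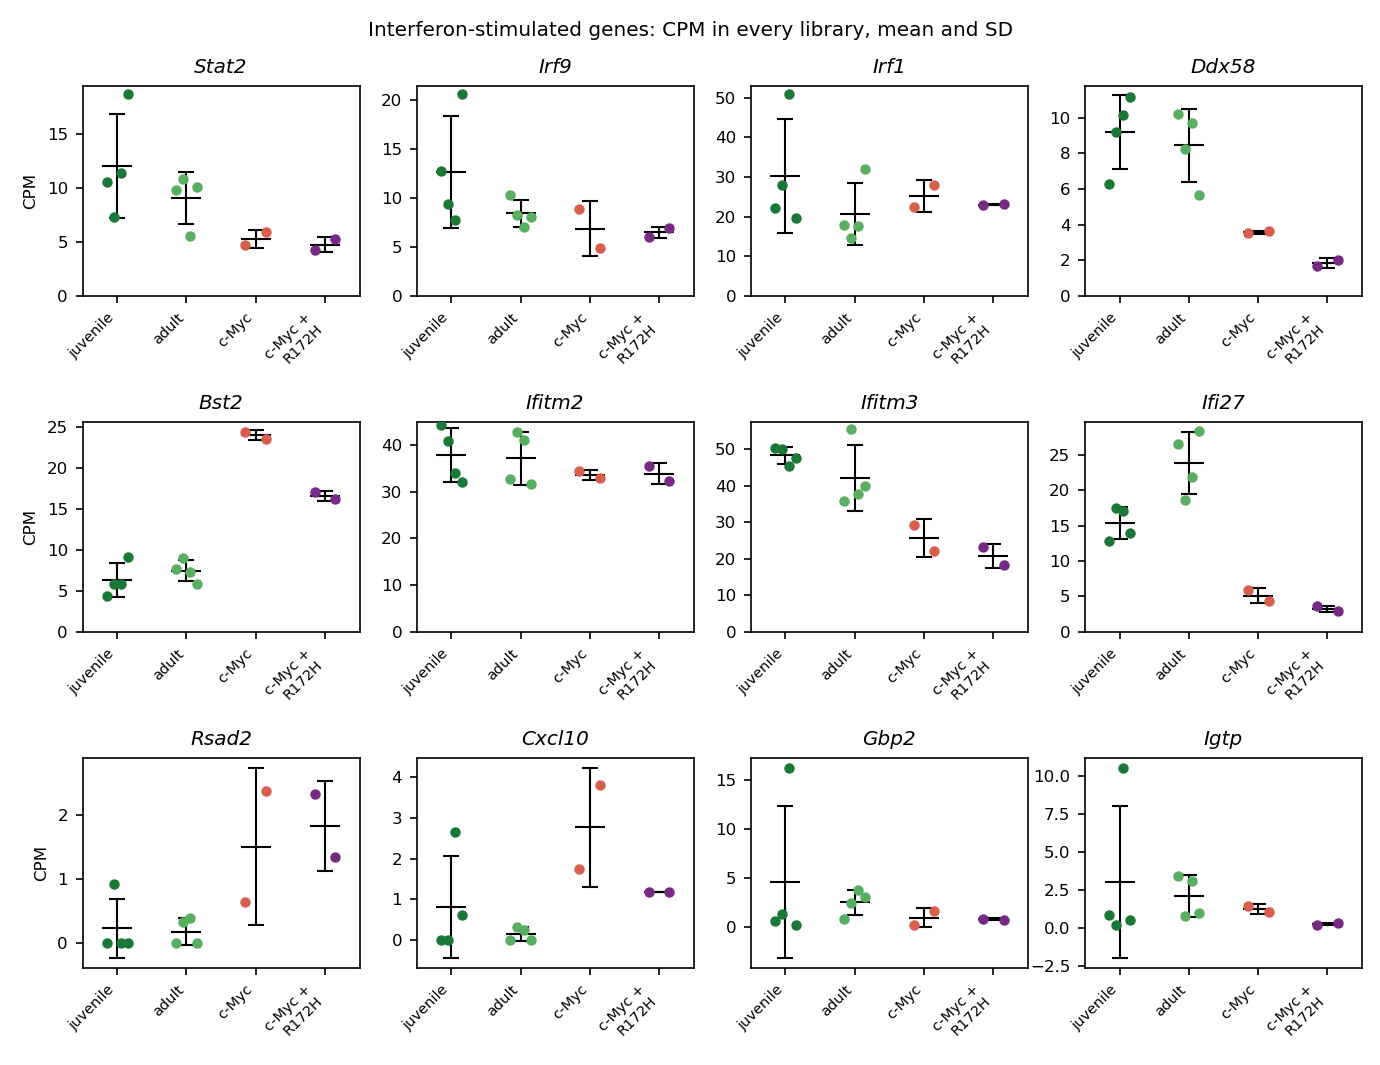
CPM of 12 members outside the MHC class I genes (vertical axes) in the 4 groups (horizontal axes). Points are libraries, horizontal marks are means and bars are SD (n = 4, 4, 2 and 2). *Bst2* is highest and *Ddx58*, *Ifitm3* and *Ifi27* are lowest in the induced libraries, *Ifitm2* is level, and *Gbp2* and *Igtp* owe their juvenile mean to 1 library.

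By role, the members called lower in *c-Myc* than in juvenile cells were 8 of 9 MHC class I genes, 1 of 4 transcription factors, 1 of 3 RNA sensors, 2 of 8 antiviral effectors tested, 1 of 3 other interferon-stimulated genes, 1 of 5 GTPases and 0 of 3 of the Parp and *Dtx3l* group. In *c-Myc* + *R172H* cells these counts were 8 of 9, 2 of 4, 2 of 3, 1 of 8, 1 of 3, 4 of 5 and 1 of 3. *Isg15* and *Cxcl10* were called in neither. Since 25.0% of all genes were called lower in *c-Myc* cells, counts of 1 in 3 or 4 are near the background. With library totals the members called lower were *H2-D1*, *B2m*, *Tapbp* and *Ifi27* in *c-Myc* cells and these with *Ddx58* and *H2-T23* in *c-Myc* + *R172H* cells. Without *c-Myc* replicate 1 the median log2 fold change of the members against juvenile cells was -1.12, against -0.87 with it. Without *c-Myc* + *R172H* replicate 2 the median was -1.28, against -1.32 with it. In both cases fewer members and fewer of all genes were called lower. Leaving out juvenile replicate 2 took the count of members called lower in the age comparison from 8 to 5. The genes called lower went from 367 of 11345 to 199 of 11575. The plot of fold changes sets the 4 comparisons side by side, with the 8 genes for class I chains and peptide loading to the left of 0 in each. Between the induced groups none of the 8 was called, and with library totals 4 of them were negative and 4 positive, with a median of -0.012 beside a median of 0.21 for all genes.

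**Figure D5:**
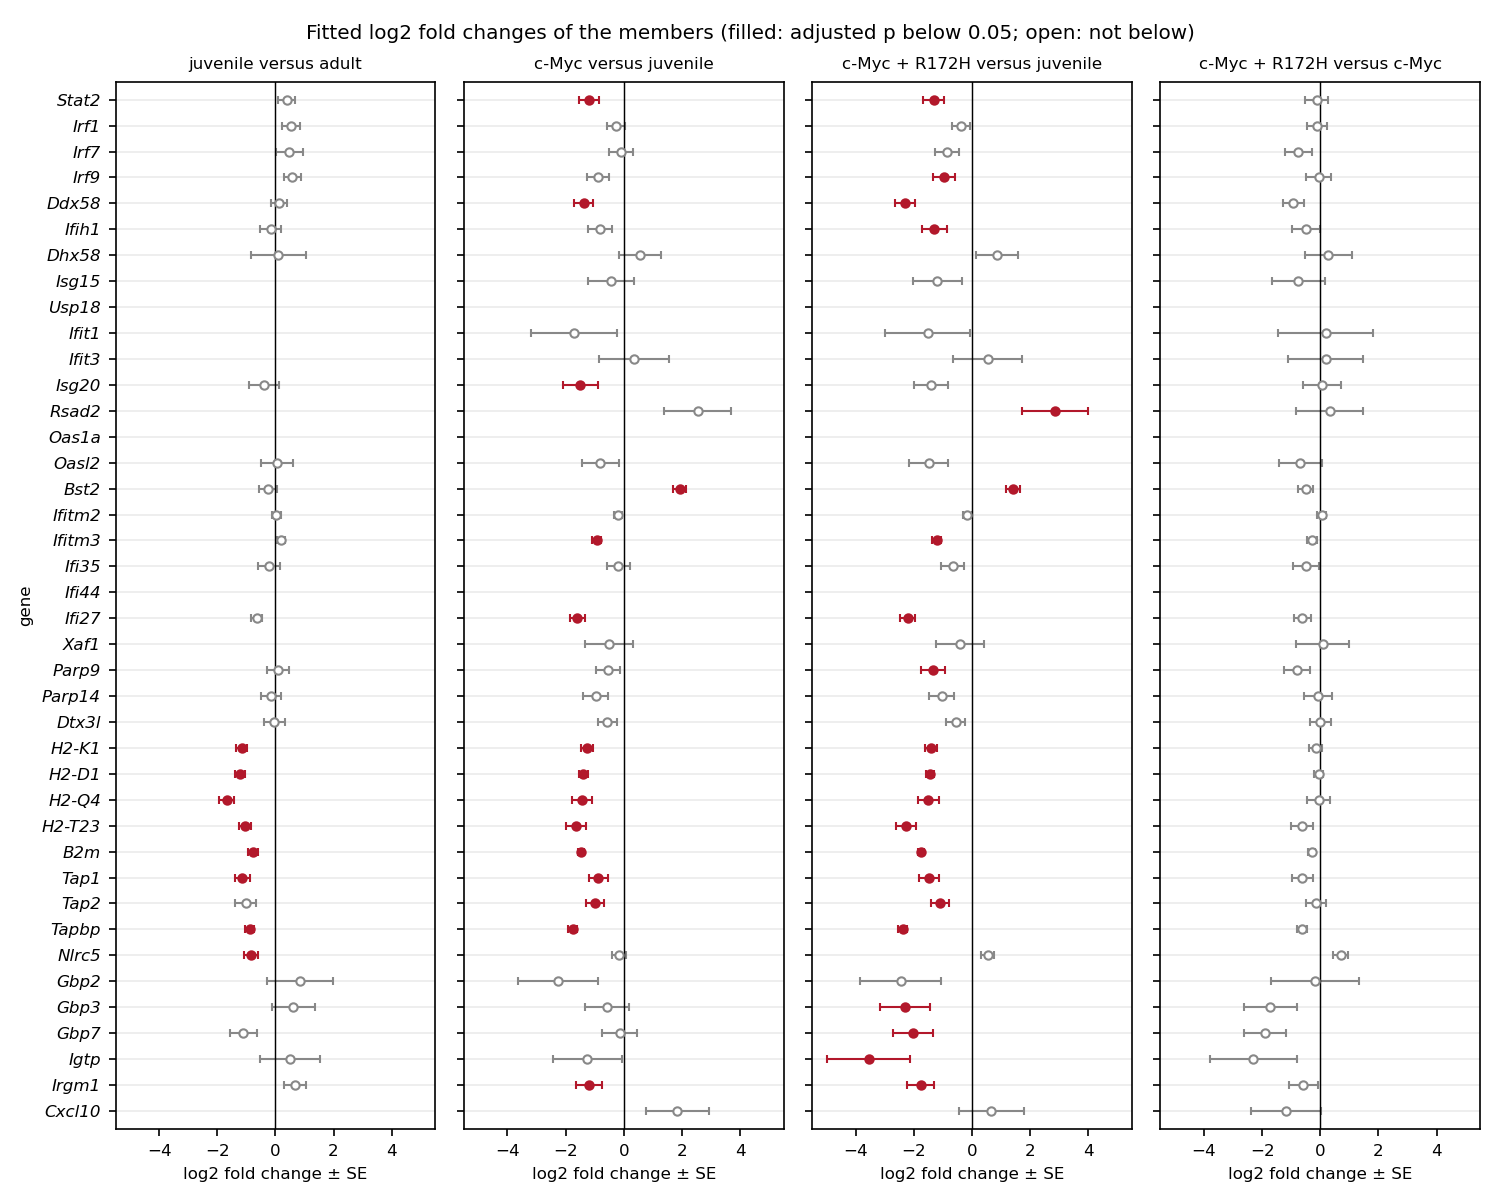
Fitted log2 fold change of each member (horizontal axes, first group over second) in the 4 comparisons, with bars of 1 SE. Filled red points had an adjusted p below 0.05 and open grey points did not, and members without a point were not tested. The class I genes are filled and negative in the 3 comparisons that involve juvenile cells, apart from *Tap2* between the ages and *Nlrc5* in the induced cells, and no point is filled between the induced groups.

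The rest of the pathway was read from lists of other genes. No interferon gene rose above the limit of detection. The 21 ligand genes, *Ifnb1* included, were at 0 counts in all juvenile, adult and *c-Myc* + *R172H* libraries and summed to at most 0.183 CPM in *c-Myc* libraries, where none was above the limit of detection and *Ifnz* stood at it, with 3 counts in each. The absence of counts in sorted osteoblasts does not speak to interferon made by other cells. The receptor gene *Ifnar1* gave 42.2, 31.2, 27.5 and 37.0 CPM in juvenile, 27.5, 33.1, 34.7 and 24.1 in adult, 23.7 and 24.7 in *c-Myc* and 24.7 and 21.4 in *c-Myc* + *R172H* libraries. *Ifnar2* gave 19.3, 18.9, 26.8 and 24.7 CPM in juvenile, 19.2, 28.4, 24.7 and 19.8 in adult, 14.5 and 12.8 in *c-Myc* and 11.7 and 12.2 in *c-Myc* + *R172H* libraries. For each, the induced libraries lay below every juvenile library, while adult replicate 4 lay among the induced libraries for *Ifnar1*. With TMM each was called lower in *c-Myc* (-0.54 ± 0.18, adjusted p = 0.0211, and -0.73 ± 0.19, adjusted p = 0.00673) and in *c-Myc* + *R172H* (-0.58 ± 0.18, adjusted p = 0.0144, and -0.90 ± 0.19, adjusted p = 0.00176) than in juvenile cells, whereas with library totals all 4 values turned positive and were not called (0.28, 0.12, 0.46 and 0.16). Leaving out *c-Myc* replicate 1 or 2 ended the *c-Myc* call of *Ifnar1* (-0.50 and -0.57), leaving out *c-Myc* replicate 2 that of *Ifnar2* (-0.65), and leaving out *c-Myc* + *R172H* replicate 2 the other call of *Ifnar1* (-0.51).

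Of the 12 receptor, kinase and feedback genes tested, 7 were called lower in *c-Myc* than in juvenile cells and 7 in *c-Myc* + *R172H* than in juvenile cells, and none was called higher, beside 25.0% and 26.3% of all genes called lower. The median log2 fold change of the list was -0.63 in *c-Myc* and -0.67 in *c-Myc* + *R172H* cells. *Socs3*, a feedback inhibitor, led with -1.39 ± 0.13 (adjusted p = 2.66e-06) in *c-Myc* and -1.66 ± 0.14 (adjusted p = 5.73e-07) in *c-Myc* + *R172H* cells. Between the ages 1 of the 12 was called, beside 1.89% of all genes called higher and 3.23% called lower. This was *Jak2*, which was higher in juvenile cells (0.55 ± 0.15, adjusted p = 0.0381). Its call was lost without each library in turn but adult replicate 2, with values over all libraries left out from 0.46 to 0.71. Among 32 other interferon-stimulated genes tested against *c-Myc*, 9 were lower and 4 higher in *c-Myc* and 9 lower and 4 higher in *c-Myc* + *R172H* than in juvenile cells. These shares lay near the 25.0% and 26.3% of all genes called lower, and below the 28.4% and 30.4% called higher. *Pnpt1*, an RNA-degrading enzyme of mitochondria, was higher (2.09 ± 0.21, adjusted p = 3.25e-06, and 2.18 ± 0.20, adjusted p = 1.94e-06), and the secreted protein gene *Lgals3bp* was lower in *c-Myc* + *R172H* cells (-2.94 ± 0.22, adjusted p = 2.46e-07). Between the ages, 2 of 27 were lower in juvenile cells, *Slfn5* and *Lgals3bp*, beside 3.23% of all genes. Of 12 adaptors of RNA and DNA sensing, *Tlr4*, *Myd88*, *Ticam1* and *Ikbke* were lower and *Mavs* and *Trim25* higher in *c-Myc* than in juvenile cells, and in *c-Myc* + *R172H* cells the kinase gene *Tbk1* was higher in addition. These counts stand beside the same shares of all genes, 25.0% and 26.3% called lower and 28.4% and 30.4% called higher. Both other GTPase genes tested, *Iigp1* and *Irgm2*, were lower in *c-Myc* (-3.12 ± 1.17, adjusted p = 0.0402, and -1.43 ± 0.44, adjusted p = 0.0156) and in *c-Myc* + *R172H* than in juvenile cells (-3.81 ± 1.24, adjusted p = 0.0194, and -1.98 ± 0.46, adjusted p = 0.00264). *Iigp1* was at 1.19, 0.826, 12.4 and 1.37 CPM in juvenile libraries, high in replicate 3 alone, and both of its calls were lost without that library (-1.35 and -2.06) and without either library of the induced group (from -3.80 to -2.63 and from -4.36 to -3.45). *Irgm2* lost its *c-Myc* call without either *c-Myc* library (-1.27 and -1.61). All 4 calls were lost with library totals. Of 4 further interferon regulatory factor genes tested, 1 (*Irf5*) was called higher in each induced group than in juvenile cells, at low levels, beside 28.4% and 30.4% of all genes. *Irf5* had next to no reads in juvenile libraries and passed the filter on low counts through the induced libraries alone, so its call is not support for a change. *Irf5* was at 0 to 0.206 CPM in juvenile, 0 to 1.04 in adult, 0.411 and 1.08 in *c-Myc* and 0.458 and 0.745 in *c-Myc* + *R172H* libraries. The chemokine gene *Cxcl9*, at 1.10, 0, 4.31 and 0.870 CPM in juvenile libraries and again highest in replicate 3, was lower in *c-Myc* + *R172H* than in juvenile cells (-4.27 ± 1.53, adjusted p = 0.0307) and was not called in *c-Myc* cells. The call of *Cxcl9* was lost with library totals, without juvenile replicate 3 (-3.08) and without either *c-Myc* + *R172H* library (-4.73 and -3.97). *Iigp1*, *Irgm2*, *Irf5*, *Cxcl9* and the genes given without a value in these sentences were chosen after their values were seen.

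Other genes of the class I pathway were read in the same way. Of 17 tested, 4 were called lower and 0 higher in juvenile than in adult cells, beside 3.23% and 1.89% of all genes, with a median log2 fold change of -0.50. Those with the smallest adjusted p were the chaperones of the endoplasmic reticulum *Canx* (-0.64 ± 0.12, adjusted p = 0.00663) and *Calr* (-0.74 ± 0.14, adjusted p = 0.00713). The other called genes were *H2-Q6* (-3.43 ± 0.62, adjusted p = 0.0259) and *H2-Q7* (-2.02 ± 0.43, adjusted p = 0.0332), near copies of *H2-Q4*, which are named here after their values were seen and whose reads may be split among them. Both calls were lost without juvenile replicate 1, 2 or 4 or adult replicate 1 or 3, and that of *H2-Q7* also without adult replicate 4, with values over all libraries left out from -4.43 to -3.14 and from -2.66 to -1.80. In *c-Myc* against juvenile cells 5 of the 17 were lower (*H2-Q7*, *H2-T22*, *Mr1*, *Cd1d1* and *Pdia3*) and 2 higher (*Canx* and the proteasome gene *Psmb10*), and in *c-Myc* + *R172H* cells 6 and 2, with the peptide-trimming enzyme *Erap1* lower as well. Of all genes, 25.0% were called lower and 28.4% higher in *c-Myc*, and 26.3% and 30.4% in *c-Myc* + *R172H* cells. The count lower in *c-Myc* cells was near that share, and both counts higher were below it. *Cd1d1*, which presents lipids, was lower in *c-Myc* cells (-1.72 ± 0.17, adjusted p = 2.84e-06). *Canx* was higher in *c-Myc* and in *c-Myc* + *R172H* cells (0.79 ± 0.10, adjusted p = 3.80e-05, and 0.74 ± 0.10, adjusted p = 5.85e-05), and thus did not share the direction of the class I chains in induced cells.

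MHC class II genes, which antigen-presenting cells express, were scarce. The 7 genes summed to 3.98 to 6.40 CPM in juvenile, 10.7 to 32.4 in adult, 1.10 to 2.10 in *c-Myc* and 1.42 to 1.59 in *c-Myc* + *R172H* libraries. *Cd74*, the invariant chain, was at 0 to 0.556 CPM over all libraries, *H2-Aa* at 0 to 0.911, *H2-Eb1* at 0 to 1.17 and *Ciita*, the class II transactivator, at 0 to 0.101 CPM. *H2-DMa* and *H2-DMb1*, which edit peptides on class II molecules, were called lower in juvenile than in adult cells (-2.54 ± 0.62, adjusted p = 0.0259, and -2.25 ± 0.46, adjusted p = 0.00982), and *H2-DMb1* was at 2.37, 2.06, 3.76 and 0.621 CPM in juvenile and 15.9, 4.63, 8.67 and 12.3 CPM in adult libraries. The call of *H2-DMa* was lost without juvenile replicate 1 (-2.56) or 4 (-2.61) and without adult replicate 1 (-2.12) or 4 (-2.61). *H2-Ab1*, at 0.0458 to 7.36 CPM, was lower in *c-Myc* (-3.05 ± 0.95, adjusted p = 0.0162) and *c-Myc* + *R172H* cells (-3.69 ± 1.00, adjusted p = 0.00727) than in juvenile cells, and *H2-DMb1* in *c-Myc* + *R172H* cells (-3.49 ± 1.14, adjusted p = 0.0199). Leaving out either *c-Myc* library ended the *c-Myc* call of *H2-Ab1* (-3.80 and -2.60), leaving out *c-Myc* + *R172H* replicate 1 its other call (-3.03), and leaving out *c-Myc* + *R172H* replicate 2 that of *H2-DMb1* (-2.77). *H2-DMa* and *H2-DMb1* thus stood higher in adult cells beside class I, but at levels of a few CPM, far below those of *H2-K1* and *H2-D1*.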

How the data were processed

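RNA was sequenced as 86-base single-end reads. The deposited table holds raw counts per gene, which the authors made with bcl2fastq 2.20, cutadapt 4.6, STAR 2.7.11a and HTSeq-count 2.0.5 on mm10 from uniquely mapped reads, with GENCODE vM25 for the alignment and vM23 for the counting. The strand setting is not given in the sources used here, and the study itself tested with DESeq2. All 12 libraries were used, grouped by their titles.

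Counts were tested with edgeR 4.0.16 in R 4.3.3 by the quasi-likelihood F test, with TMM scaling, the default filter on low counts, robust estimation and Benjamini-Hochberg adjustment over all genes tested (adjusted p below 0.05). The fit of ages held 8 libraries and the fit with *c-Myc* held the 8 juvenile and induced libraries, without further terms. SEs were computed as |log2 fold change| / √F. Scripts were tested on simulated counts. Levels are CPM and give counting precision only. Coordinates and exon lengths are from GENCODE vM21 on GRCm38 and promoters from RefSeq on GRCm38.p6.

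The members, the lists of other pathway and marker genes and the tests were chosen with earlier results of these data known. Per-library values are given for the called members with the smallest adjusted p in each direction and for members of each role, and pathway genes are named for the smallest adjusted p per comparison besides *Ifnb1*, *Ifnar1*, *Ifnar2* and the MHC class II genes. A further gene of this rule is not reported here. Alternatives were RLE scaling, upper-quartile scaling, scaling by library totals, dropping both collagen I genes and *Gm26917*, no filter, a minimum of 10 counts per library, fitting all 12 libraries or the compared groups alone, a fold threshold, a replicate block, DESeq2 1.42.0, and each library left out. The alternatives for pathway genes were added after seeing the data. Replicate numbers were not taken as pairs.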

Additional observations from a re-analysis of the deposited data

Results flagged for a closer look

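In 10 of 76 groups of 4 libraries 1 library stood apart from the others by Dixon's criterion at the 95% level. Its rate of 1 in 20 by chance holds for normal data. A group with reads in 1 library alone is always flagged, so that rate cannot be set against these counts. In juvenile replicate 3 these were *H2-Q4* at 20.0 CPM against 9.13 to 10.2 in the others, *Tap1* at 11.7 against 6.91 to 7.49, *Gbp2* at 16.3 against 0.248 to 1.34 and *Igtp* at 10.6 against 0.206 to 0.822. The other cases were low in counts. *Ifit3* was at 1.19 CPM in juvenile replicate 1 against 0 to 0.124, *Ifi44* at 0.457 in juvenile replicate 1 against 0, and *Rsad2* at 0.929 in juvenile replicate 2 against 0. Among adult libraries *Isg15* was at 3.16 CPM in replicate 2 against 0.776 to 1.17, *Ifi44* at 1.02 in replicate 2 against 0 to 0.129, and *Oas1a* at 0.709 in replicate 1 against 0.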

How the results depend on the processing

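Of the values of single genes under the alternatives, 1192 had the direction and the side of the threshold of the reported value, 147 were no longer past it, 10 passed it anew and 9 changed sign. The 8 genes for class I chains and peptide loading were negative in juvenile against adult and in both induced groups against juvenile under every alternative run. With library totals, *Nlrc5* (0.66), *Ifnar1* (0.28) and *Ifnar2* (0.12) turned positive in *c-Myc* against juvenile, *Irf9* (0.094), *Jak2* (0.16), *Ifnar1* (0.46) and *Ifnar2* (0.16) in *c-Myc* + *R172H* against juvenile, and *Tap2* (0.068) in *c-Myc* + *R172H* against *c-Myc*, where 4 of the 8 genes were positive and their median was -0.012. With libraries left out, *Nlrc5* ranged from -0.28 without juvenile replicate 2 to 0.0062 without juvenile replicate 1 in *c-Myc* against juvenile. The causes were not tested.

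In juvenile against adult, 8 members were lower, 5 with a fold threshold and 5 to 8 with libraries left out. In *c-Myc* against juvenile, 1 member was higher, 5 with library totals, 3 without the filter, 2 with a replicate block and 1 to 2 with libraries left out, and 14 were lower, 4 with library totals and 9 to 14 with libraries left out. In *c-Myc* + *R172H* against juvenile, 2 were higher, 6 with library totals, 1 each with upper-quartile scaling, without *Col1a1*, *Col1a2* and *Gm26917*, with all 12 libraries, with only the 2 groups compared and with DESeq2, and 1 to 2 with libraries left out. In the same comparison 19 were lower, 6 with library totals and 11 to 21 with libraries left out. In *c-Myc* + *R172H* against *c-Myc*, 0 were called, against 1 higher and 5 lower with only the 2 groups compared, 1 lower with the replicate block and 1 lower with DESeq2.

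No source says that a replicate number marks shared mice or a shared day. Correlations of the deviations of libraries with the same number were 0.053, -0.079, 0.023 and -0.056 between the ages, 0.056 and -0.040 in *c-Myc* against juvenile, and 0.174 for both pairs in *c-Myc* + *R172H* against *c-Myc*, where replicate 2 is the library with *Xist* in both groups. With 2 pairs the numbers were not taken to pair the libraries, and the replicate block, which gave 7 members lower in juvenile against adult, 16 in *c-Myc* and 20 in *c-Myc* + *R172H* against juvenile, is given here alone. Of all genes, the block called 268 of 11345, 3640 of 12588 and 3731 of 12588 lower in these comparisons. In *c-Myc* + *R172H* against *c-Myc* the block called *Tapbp* (adjusted p = 0.0163, against 0.246 without it).

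Over all genes tested, the counts higher and lower ranged over the alternatives from 53 to 461 and from 199 to 792 in juvenile against adult (214 and 367 as reported), from 2624 to 6803 and from 1116 to 3640 in *c-Myc* against juvenile (3577 and 3149), from 0 to 189 and from 7 to 440 in *c-Myc* + *R172H* against *c-Myc* (1 and 58), and from 2748 to 7667 and from 1169 to 3731 in *c-Myc* + *R172H* against juvenile (3832 and 3311). Where a library left out leaves 1 in its group, that library is assumed to vary like the others in the fit. At this depth differences of members under 10 CPM can go undetected.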
